A study of Mus musculus with 16 samples.

Results

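Xanthine dehydrogenase makes uric acid in purine breakdown, and P2ry1 and P2ry2 are 2 receptors for extracellular nucleotides. Their genes were low in mouse cortical endothelial cells at postnatal day 14 (P14) and several-fold higher at postnatal day 50 (P50). This was so in wild-type mice and in mice with a deletion modelling human 16p11.2 deletion syndrome. The genes described here are 8 endothelial genes of purine sensing and breakdown: the nucleotide receptors P2ry1, P2ry2 and P2rx4, the adenosine receptor Adora2a, the surface enzymes Entpd1 and Nt5e, and the intracellular enzymes Pnp and Xdh. They were taken by symbol, and the set was put together because P2ry1, P2ry2 and Xdh were already seen to be higher at P50, so the differences between the ages are described for these genes without a test. Of the 8 symbols, 7 matched a row of the 52636 genes in the count table; Pnp did not, and a row that shares most of its exon sequence with Pnp is given separately. All 7 passed the filter on low counts that left 15368 genes for testing.

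RNA was sequenced from 16 preparations of cortical endothelial cells, 4 each from wild-type (WT) and 16p11.2 df/+ littermates at P14 and at P50, with 2 mice pooled per preparation (32 mice in all). The df/+ mice were hemizygous offspring of 16p11.2 df/+ males and WT females on a mixed B6/129 background; they lack 1 copy of the mouse interval matching 16p11.2 in every cell, not in endothelium alone. Cells were selected on CD31 after removal of myelin and of CD45-positive cells, and RNA was taken straight from the suspension. Libraries held between 8658792 and 18737781 counted reads. The column headers number them so that P14 WT and P50 df/+ hold 1 to 8, and P14 df/+ and P50 WT hold 9 to 16. What these numbers stand for is not stated. A difference between these 2 sets of libraries cannot be told apart from the genotype difference at either age. The same holds for the age difference in either genotype and for the difference of the genotype effect between the ages. Of 14 genes of the deleted interval, 13 were measured, and their mean levels in df/+ were 0.413 to 0.647 of WT at P14 (median 0.461) and 0.432 to 0.692 at P50 (median 0.526). Endothelial markers such as Cldn5, Flt1 and Pecam1 were high in every library, with the 14 listed markers summing to between 21170 and 30497 CPM (reads scaled to library size). Both P14 WT replicate 1 and P50 df/+ replicate 2 stood apart from their groups. P14 WT replicate 1 had summed oligodendrocyte markers of 10608 CPM, against 1310 to 2268 in the other P14 WT libraries. P50 df/+ replicate 2 had no read for 1221 of the 15368 tested genes, against 24 to 116 genes in the other libraries. Its log2 levels relative to the median of the P50 libraries fell with the length of a gene's longest transcript. The slope was -0.35 per log2 of length, against -0.18 to 0.17 in the other P50 libraries.

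Cells release ATP and other nucleotides, which act on 2 receptor families: P2X receptors are ATP-gated cation channels, and P2Y receptors couple to G proteins. In endothelium, P2Y1 (mainly an ADP receptor) and P2Y2 (an ATP and UTP receptor) raise intracellular calcium and set off the release of nitric oxide and other vasodilators. Ectonucleotidases end the signal by cutting ATP and ADP to AMP and AMP to adenosine, which has receptors of its own, and inside the cell purine nucleoside phosphorylase and xanthine dehydrogenase carry purines on to uric acid. Xanthine dehydrogenase can also be converted to an oxidase that makes reactive oxygen species.

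The 250 bases before a start site of P2ry1 and of P2ry2 are shown because these 2 receptor genes were both low at P14 and higher at P50. The sequences are those of RefSeq on GRCm38.p6, chr3:61002535-61002784 on the plus strand for P2ry1 and chr7:101012054-101012303 on the minus strand for 1 of 2 listed starts of P2ry2, each written 5′ to 3′ towards the start, with capitals marking the GC box (GGGCGG on either strand).
P2ry1: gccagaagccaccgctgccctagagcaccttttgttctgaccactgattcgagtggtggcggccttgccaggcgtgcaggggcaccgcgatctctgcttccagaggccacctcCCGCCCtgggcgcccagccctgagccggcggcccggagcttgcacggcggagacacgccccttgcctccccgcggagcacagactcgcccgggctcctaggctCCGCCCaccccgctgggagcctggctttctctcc
P2ry2: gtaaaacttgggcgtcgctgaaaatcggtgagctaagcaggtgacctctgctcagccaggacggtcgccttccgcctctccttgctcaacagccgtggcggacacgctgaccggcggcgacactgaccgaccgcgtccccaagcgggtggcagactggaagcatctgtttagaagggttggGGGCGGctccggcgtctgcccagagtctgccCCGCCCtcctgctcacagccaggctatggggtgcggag
Both windows were rich in G and C (70.8% for P2ry1 and 65.2% for P2ry2, against a median of 52.4% over 32851 promoter windows of the same length) and each held 2 GC boxes. A GC box occurs in 32.7% of all these windows. Neither window held a TATA box (TATAAA on either strand), which occurs in 12.4% of all windows, or an AP-1 motif (TGANTCA), which occurs in 6.75%. RefSeq windows matched for 6 of the 8 genes, and Xdh and Adora2a had no entry. The other listed start of P2ry2 had 71.2% G and C and 4 GC boxes. Nt5e, whose groups overlapped between the ages, had 72.0% and 4, and Pnp had 46.8% and 1. P2rx4, higher at P50, held no GC box, and neither did Entpd1. None of these windows held a TATA box or an AP-1 motif, so the traits named were not particular to the 2 receptors.

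P2ry1 (ENSMUSG00000027765, GRCm38 chromosome 3, 61002795 to 61008982, plus strand) was at the edge of detection at P14. The 4 P14 WT libraries, replicates 1 to 4, held 0.79, 0.64, 0.89 and 1.29 CPM, and the 4 P14 df/+ libraries 0.98, 1.43, 1.53 and 0.82 CPM. At P50 it stood at 10.3, 8.67, 11.03 and 6.23 CPM in WT and at 7.73, 5.88, 13.4 and 12.6 CPM in df/+. Every P50 library was above every P14 library in both genotypes. The fitted difference between the ages was 3.32 ± 0.34 on the log2 scale in WT (SE, n = 4 against 4), a 9.99-fold difference, and 3.06 ± 0.33 in df/+. An antisense gene, Gm37035, shares 992 exon bases with P2ry1 and held 6 reads over all libraries.

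P2ry2 (ENSMUSG00000032860, chromosome 7, 100996568 to 101012866, minus strand), also coupled to calcium release, followed a like course from a low start. It stood at 0.95, 1.23, 1.24 and 1.29 CPM in P14 WT and at 1.36, 1.76, 2.09 and 2.47 CPM in P14 df/+. At P50 the WT libraries held 9.27, 7.02, 12.3 and 9.32 CPM and the df/+ libraries 2.71, 5.39, 16.7 and 13.7 CPM. The ages did not overlap in either genotype, but the P50 df/+ libraries spread over a 6.16-fold range, with replicates 1 and 2 low and replicates 3 and 4 high, where P50 WT spread over 1.75-fold. The log2 difference between the ages was 3.00 ± 0.46 in WT and 2.32 ± 0.44 in df/+.

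P2rx4 (ENSMUSG00000029470, chromosome 5, 122707544 to 122729738, plus strand), the ATP-gated channel that opens calcium entry in endothelium under flow, was tightly grouped at P14 and higher at P50. WT libraries held 15.3, 13.4, 14.6 and 14.6 CPM at P14 and 25.4, 28.9, 25.3 and 37.0 CPM at P50. The df/+ libraries held 17.6, 14.2, 15.4 and 15.03 CPM at P14 and 28.7, 28.7, 21.2 and 25.9 CPM at P50. Again the ages did not overlap, with log2 differences of 1.01 ± 0.15 in WT and 0.74 ± 0.15 in df/+.

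Adora2a (ENSMUSG00000020178, chromosome 10, 75316877 to 75334784, plus strand), the adenosine A2A receptor that raises cyclic AMP, took the opposite course. It stood at 114, 137, 125 and 126 CPM in P14 WT and at 123, 99.9, 94.7 and 104 CPM in P14 df/+, and at 25.0, 29.7, 29.3 and 40.5 CPM in P50 WT and 40.7, 41.1, 23.3 and 31.9 CPM in P50 df/+. Every P50 library was below every P14 library, by 2.01 ± 0.18 on the log2 scale in WT and 1.63 ± 0.18 in df/+ (fitted differences of -2.01 and -1.63).

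Entpd1 (ENSMUSG00000048120, chromosome 19, 40612366 to 40741602, plus strand), the surface enzyme CD39 that cuts ATP and ADP to AMP, stayed high at both ages. Its group means were 172 ± 16.4 CPM in P14 WT, 183 ± 6.85 in P14 df/+, 180 ± 42.8 in P50 WT and 179 ± 30.3 in P50 df/+ (SD, n = 4), and all 4 groups overlapped. Single libraries ran from 161 to 196 CPM in P14 WT and from 126 to 230 CPM in P50 WT, so the libraries differed more from each other at P50. The log2 difference between the ages was 0.07 ± 0.16 in WT and -0.03 ± 0.16 in df/+.

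Nt5e (ENSMUSG00000032420, chromosome 9, 88327197 to 88372092, plus strand), the enzyme CD73 that turns AMP into adenosine, was scarce throughout. It stood at 2.06, 1.34, 1.10 and 1.36 CPM in P14 WT, at 2.88, 1.54, 2.37 and 2.61 CPM in P14 df/+, and at 1.45, 1.72, 1.88 and 0.94 CPM in P50 WT. The P50 df/+ libraries held 3.38, 0, 2.21 and 1.72 CPM; the 0 reads of replicate 2 allow up to 0.210 CPM (3 reads, counting error only), and that is the library with no read for 1221 genes. The groups overlapped, and the gene counted 14 to 60 reads in each of the other libraries, so a difference below the spread seen here was not detectable.

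Xdh (ENSMUSG00000024066, chromosome 17, 73883895 to 73950196, minus strand), which oxidises hypoxanthine to xanthine and xanthine to uric acid, differed most between the ages. At P14 the WT libraries held 12.2, 2.98, 7.71 and 6.14 CPM and the df/+ libraries 14.1, 8.80, 11.99 and 6.11 CPM. At P50 the WT libraries held 322, 350, 573 and 374 CPM and the df/+ libraries 246, 216, 361 and 612 CPM. The lowest P50 library thus stood more than an order of magnitude above the highest P14 library. The fitted log2 difference was 5.81 ± 0.47 in WT (56.1-fold) and 5.12 ± 0.46 in df/+ (34.8-fold), the rank 6 and rank 9 highest values among the 15368 tested genes. Without P14 WT replicate 1 and P50 df/+ replicate 2 the log2 differences were 6.17 and 5.28 for Xdh, 3.25 and 3.23 for P2ry1, and 2.90 and 2.497 for P2ry2, in WT and df/+.

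Of the 7 genes, 4 (P2ry1, P2ry2, P2rx4 and Xdh) had no overlap between the ages and were higher at P50 in both genotypes; groups that did not overlap in this direction made up 17.4% of all tested genes in WT and 13.5% in df/+, and since the set was chosen on this difference nothing is read from its share. Adora2a was lower without overlap, as were 17.1% of all tested genes in WT and 15.2% in df/+. The remaining gene, Pnp, which splits inosine and guanosine to hypoxanthine and guanine, has no row under its own identifier (ENSMUSG00000115338). The row ENSMUSG00000021871 is called Gm49342 in GENCODE M21 (chromosome 14, 50944517 to 50963136, plus strand). There it shares 718 of its 750 exon bases with Pnp (95.7%) and a further 32 with the neighbouring, near-identical Pnp2, and covers 18.04% of the Pnp exons. The annotation the authors counted on is not stated in the labels or headers, so the exons counted can differ from these. This row held 13353 reads over all libraries, against 236 in the row of Pnp2, and its reads were not given to 1 gene. It stood at 59.7 ± 16.4 CPM in P14 WT, 51.8 ± 11.17 in P14 df/+, 53.2 ± 8.11 in P50 WT and 51.7 ± 6.95 in P50 df/+ (SD, n = 4), all overlapping.

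**Figure D1:**
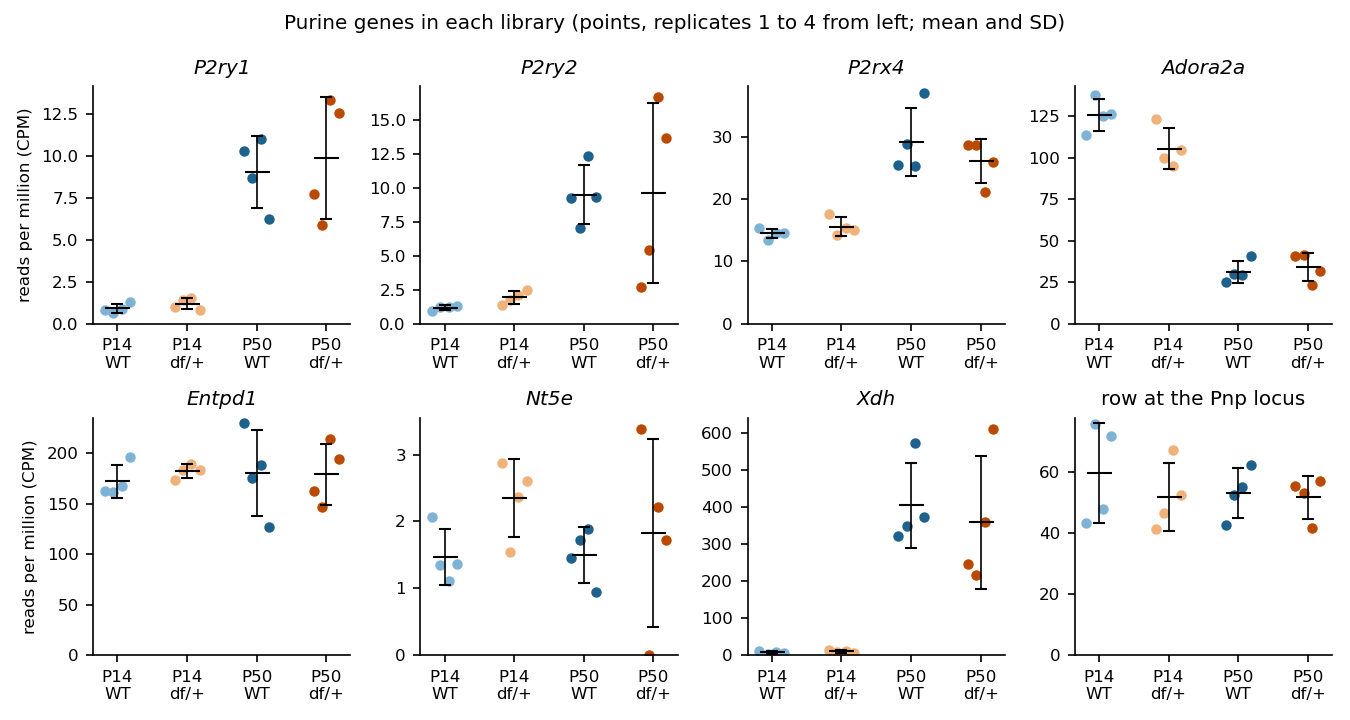
Reads scaled to library size (CPM, linear axes from 0) in each of the 16 libraries for the 7 genes and the row at the Pnp locus, grouped by age and genotype; points run from replicate 1 to replicate 4 within a group, and the bar and whiskers give the mean and SD of 4 libraries. P2ry1, P2ry2, P2rx4 and Xdh lie higher and Adora2a lies lower at P50 with no overlap, Xdh going from at most 14.1 CPM at P14 to at least 216 CPM at P50, while Entpd1, Nt5e and the row at the Pnp locus overlap.

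Levels were compared between genes as TPM, which also divides by exon length. At P14, in WT, Adora2a stood at 152 ± 9.10 TPM and Entpd1 at 115 ± 11.1 TPM, well above P2rx4 (7.67 ± 0.54) and Xdh (2.96 ± 1.61), with P2ry2 (1.11 ± 0.13), P2ry1 (0.78 ± 0.24) and Nt5e (0.63 ± 0.19) at the foot. In P14 WT the first 4 of these stood apart from their neighbours in the order, except that Xdh overlapped P2ry2; in P14 df/+ Adora2a (132 ± 14.4 TPM) and Entpd1 (125 ± 5.68 TPM) overlapped. At P50 Xdh joined Entpd1 at the top, with 148 ± 46.9 TPM against 109 ± 31.9 TPM in WT and 135 ± 86.0 against 108 ± 39.6 in df/+, ranges that overlapped. Adora2a came next (33.7 ± 5.38 TPM in WT and 35.3 ± 5.21 in df/+), then P2rx4 (13.8 ± 1.81 and 11.96 ± 1.68), with P2ry2 and P2ry1 overlapping each other (in df/+, P2ry2 also overlapped P2rx4) and Nt5e last. As a share of the summed TPM of the 7 genes, Xdh went from 1.07% ± 0.62 to 45.7% ± 6.89 in WT and from 1.55% ± 0.49 to 41.1% ± 9.55 in df/+ (SD, n = 4). Adora2a went from 54.4% ± 3.08 to 10.9% ± 3.25 in WT and from 48.1% ± 3.48 to 13.3% ± 5.87 in df/+.

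**Figure D2:**
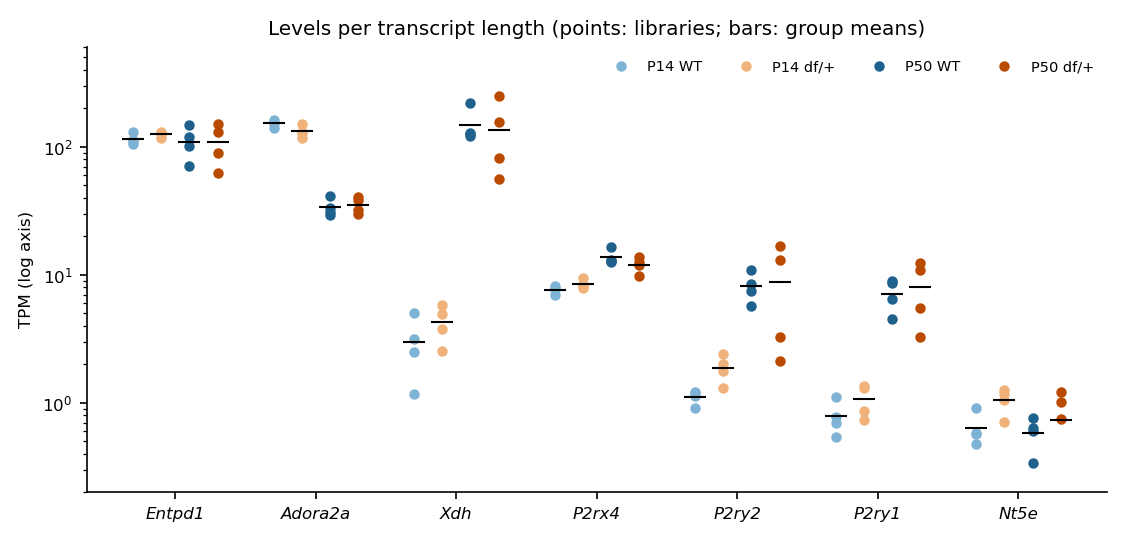
Length-scaled levels (TPM, log axis) of the 7 genes in each library (points) with the mean of each group of 4 (bars); the P50 df/+ library without Nt5e reads has no point there. Xdh lies between 1.18 and 5.78 TPM at P14 and at 55.9 TPM or more at P50, beside Entpd1, while the mean of Adora2a is 152 TPM at P14 and 33.7 TPM at P50 in WT.

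None of the 7 genes passed the test for a difference between df/+ and WT at either age. With edgeR's quasi-likelihood test and Benjamini-Hochberg adjustment over all tested genes, 0 of 7 were called at adjusted p under 0.05 at P14 (0.0651% of all genes were called), 0 of 7 at P50 (0.0586%), 0 of 7 over both ages averaged (0.117%), and for 0 of 7 did the genotype effect differ between the ages (0%). No member had an unadjusted p under 0.05 in any of these 4 comparisons, and 0 were called by DESeq2 or limma-voom; the smallest unadjusted edgeR p was 0.154 at P14 (P2ry2) and 0.288 at P50 (P2rx4). At P14, P2ry2 was higher in all 4 df/+ libraries than in any WT library, with a log2 difference of 0.70 ± 0.47 and a 95% interval of -0.29 to 1.69; groups that did not overlap in this direction made up 1.56% of all tested genes. Xdh differed between the genotypes by 0.51 (95% interval -0.35 to 1.38) at P14 and by -0.17 (-0.98 to 0.63) at P50 on the log2 scale. Intervals this wide leave room for differences of over 1.5-fold either way for P2ry2 and Xdh at P50. They were narrower for Entpd1 (-0.35 to 0.33 at P50), P2rx4 (-0.46 to 0.15) and Adora2a (-0.24 to 0.51).

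**Figure D3:**
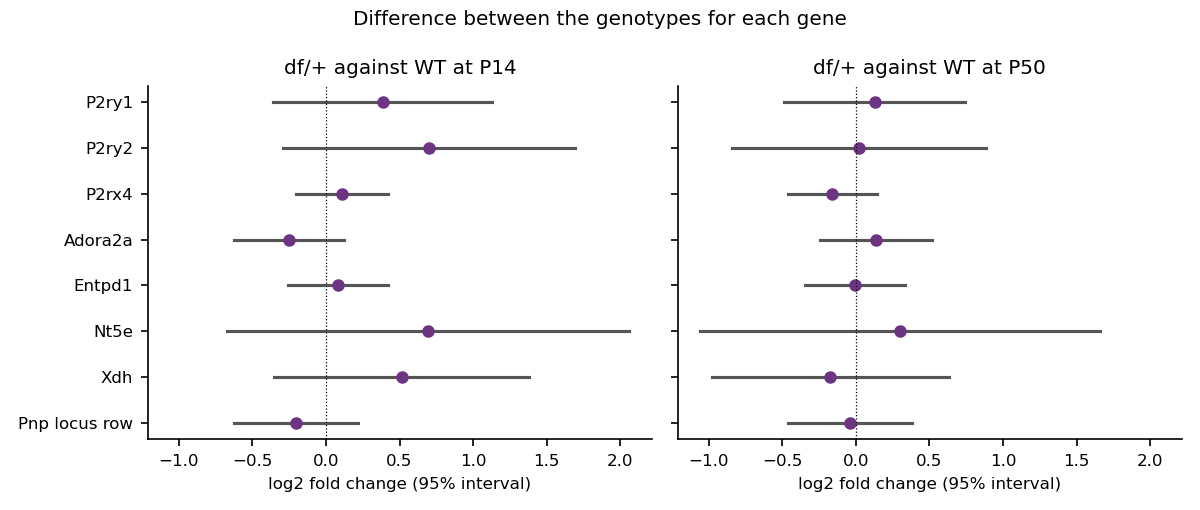
Log2 fold change of df/+ against WT (points) with its 95% interval (lines) for each of the 7 genes and the row at the Pnp locus, at P14 (left) and P50 (right). All intervals cross 0, and those of Nt5e and P2ry2 are the widest, for P2ry2 from -0.29 to 1.69 at P14.

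Other cell types' markers moved with age beside these genes, and in bulk samples more cells of a type and more RNA per cell cannot be told apart. Summed over 8 oligodendrocyte markers, WT libraries held 1310 to 10608 CPM at P14 and 10531 to 27556 CPM at P50, and df/+ libraries 2098 to 6219 and 10491 to 23523 CPM; 3 of the 8 genes, among them Mbp and Mobp, were called higher in each genotype. Summed over 6 ependymal and choroid plexus markers, chiefly Ttr, WT libraries held 563 to 1234 CPM at P14 and 1575 to 17470 CPM at P50, and df/+ libraries 19.1 to 3110 and 2170 to 43000 CPM, with 4 of 6 called higher in WT and 5 of 6 in df/+. Summed over 8 fibroblast markers, WT libraries held 237 to 280 CPM at P14 and 105 to 138 CPM at P50, and df/+ libraries 267 to 338 and 77.7 to 134 CPM, so these sums were lower at P50 without overlap, like Adora2a; 2 of 8 genes were called lower and 1 higher in WT, and 4 lower and 1 higher in df/+. Over 7 markers of oligodendrocyte precursors the sums were 249 to 419 CPM at P14 and 162 to 216 CPM at P50 across both genotypes, with 3 called lower in WT and 4 in df/+. Over 9 pericyte markers they were 4223 to 5540 CPM at P14 and 3559 to 5648 CPM at P50, with 4 called lower and 1 higher in WT, and 2 lower and 3 higher in df/+. Over 7 smooth muscle markers the sum was 228 to 299 CPM at P14 and 455 to 816 CPM at P50 across both genotypes. Of the oligodendrocyte, choroid plexus and smooth muscle markers, each was detected in every library except Actg2, a smooth muscle marker at 0 in 6 libraries.

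Xdh is given beside these sums for single libraries whose sums lay close together or at an end of the range. P50 WT replicate 1, with a choroid plexus sum of 1575 CPM inside the range of the P14 df/+ libraries, held 322 CPM of Xdh. P50 df/+ replicate 4, with a choroid plexus sum of 2170 CPM, held the highest Xdh of all libraries (612 CPM), and P50 df/+ replicate 2, with the highest choroid plexus sum (43000 CPM), held the lowest of the P50 libraries (216 CPM). P14 WT replicate 1, with an oligodendrocyte sum of 10608 CPM, held 12.2 CPM of Xdh, against 573 and 361 CPM in P50 WT replicate 3 and P50 df/+ replicate 3, whose oligodendrocyte sums were 10531 and 10491 CPM. Within P14, the 4 libraries with the highest oligodendrocyte sums (P14 WT replicate 1 and P14 df/+ replicates 1, 2 and 3) also held the 4 highest Xdh levels, 8.80 to 14.1 CPM against 2.98 to 7.71 in the others. P2ry1 in P14 WT replicate 1, P50 WT replicate 3 and P50 df/+ replicate 3 stood at 0.79, 11.03 and 13.4 CPM. The part of other cell types in the differences between the ages was not tested.

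**Figure D4:**
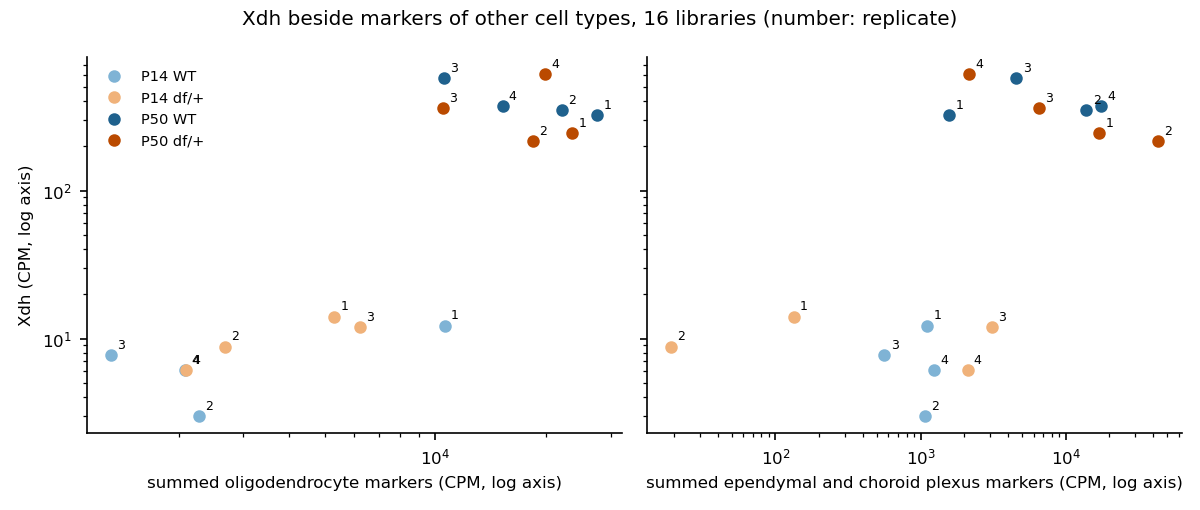
Xdh (CPM, log axis) against the summed CPM of 8 oligodendrocyte markers (left, log axis) and of 6 ependymal and choroid plexus markers (right, log axis) in the 16 libraries, coloured by group and numbered by replicate. At choroid plexus sums between 1575 and 3110 CPM, P50 libraries hold 322 and 612 CPM of Xdh and P14 libraries 6.11 and 11.99 CPM.

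At P50, libraries of 1 group differed in a way that ran through several of these genes. P50 WT replicate 4 and P50 df/+ replicates 1 and 2 had the 3 lowest levels of P2ry1 (6.23, 7.73 and 5.88 CPM, against 8.67 to 13.4 in the other P50 libraries) and of Entpd1 (126, 162 and 147 CPM, against 175 to 230), and the 3 highest levels of Adora2a (40.5, 40.7 and 41.1 CPM, against 23.3 to 31.9). The same 3 libraries had the 3 highest choroid plexus sums. They also had the most negative slopes, on log2 transcript length, of the deviation from the P50 median (-0.18, -0.13 and -0.35, against -0.05 to 0.17). With each library's trend on length and GC content removed, the SD of log2 values in P50 df/+ was 0.24 in place of 0.54 for P2ry1, 0.39 in place of 0.67 for Xdh and 0.16 in place of 0.38 for Adora2a. For P2ry2 it was 1.38 in place of 1.13, and for P2rx4 0.41 in place of 0.20. The values before the step add 0.5 CPM ahead of the log and those after it a fraction of a read. The 2 SDs are therefore on unlike scales where counts are low. For Nt5e, with its library at 0, they were 2.82 after and 1.30 before, and no effect of the step is read from them. The trends were fitted within each age, to each library's deviation from the mean of its age. A length or GC trend between the ages was thus left in, and the step says little about the age differences. After it these were 3.23 for P2ry1, 5.74 for Xdh and -2.03 for Adora2a in WT.

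Beyond these genes, 126 others of purine signalling and metabolism were looked up by role, of which 108 were tested. Between P14 and P50, 41 of 108 (38.0%) passed edgeR's test in WT, 22 higher and 19 lower at P50, against 25.1% of all tested genes (13.1% higher and 12.1% lower). In df/+ 41 also passed (38.0%), 21 higher and 20 lower, against 29.4% (16.7% higher and 12.7% lower). The list was chosen with earlier results of these data known and was not tested as a set. Nothing is therefore read from its share or from those of its role groups. The median log2 difference of the 108 was -0.04 in WT and -0.01 in df/+, against 0.03 in both over all genes. In both genotypes 17 genes rose and 16 fell. Among the 17 are Slc28a3 and P2rx6, which passed the filter on low counts only through their P50 libraries. Each of the 8 libraries of a comparison was also left out in turn, and for the named genes whose call was then lost the number of these 8 fits that kept it is given. Between the genotypes 0 of 108 passed in any of the 4 comparisons (at most 7 had an unadjusted p under 0.05), and 0 by DESeq2 or limma-voom.

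Among the surface enzymes that act on nucleotides, 1 of 8 tested rose in WT and 3 fell, and 1 rose and 4 fell in df/+. The called shares were 50.0% and 62.5%, against 25.1% and 29.4% of all tested genes. Alpl, tissue-nonspecific alkaline phosphatase, which can strip phosphate from extracellular nucleotides, rose from 15.5 CPM (12.2 to 20.7) to 295 CPM (223 to 363) in WT and from 20.4 CPM (17.2 to 23.8) to 224 CPM (201 to 249) in df/+. Its log2 changes were 4.25 ± 0.21 (adjusted p = 4.69e-09, edgeR) and 3.46 ± 0.20 (adjusted p = 2.04e-08), with all 4 libraries of each group moving the same way. Enpp3, a surface enzyme that hydrolyses ATP, fell from 9.06 to 0.72 CPM in WT and from 10.03 to 0.89 CPM in df/+ (log2 changes -3.65 and -3.46). Cd38, which consumes NAD, fell from 53.6 to 24.4 CPM and from 46.7 to 17.2 CPM. Dpp4, a surface peptidase that binds adenosine deaminase on human cells, fell from 77.9 to 31.0 CPM in WT (log2 change -1.33, adjusted p = 0.00931, edgeR) and from 79.0 to 36.9 CPM in df/+ (log2 change -1.10, adjusted p = 0.0241, edgeR, kept in 5 of 8 fits, and 0.0503 without the 2 libraries that stood apart). Enpp1, which also cuts ATP, fell in df/+ only by the test (log2 change -1.15; -0.45 in WT, adjusted p = 0.226, edgeR), and the 2 changes were not called different.

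Xdh needs a molybdenum cofactor that carries sulfur, and Mocos, the enzyme that adds this sulfur, rose in both genotypes. It went from 3.84 CPM (2.86 to 4.47) to 17.5 CPM (15.4 to 19.2) in WT and from 3.98 CPM (3.52 to 4.53) to 19.3 CPM (17.8 to 21.2) in df/+, log2 changes of 2.19 ± 0.16 (adjusted p = 1.54e-07, edgeR) and 2.27 ± 0.16 (adjusted p = 1.38e-07). Of the 9 tested genes of the cofactor and its enzymes, none fell. In df/+ 2 rose (22.2%, against 29.4% of all tested genes called) and in WT 3 (33.3%, against 25.1%). These shares are near those of all genes, and nothing is read from them. The other 2 in WT were Suox, sulfite oxidase (15.2 to 21.1 CPM), and Aox1, aldehyde oxidase (10.2 to 16.3 CPM). Suox also rose in df/+ (14.5 to 19.2 CPM), and Aox1 stood at 11.02 and 15.7 CPM there (adjusted p = 0.0796, edgeR). The call was kept in 2 of 8 fits for Aox1 in WT and in 5 of 8 for Suox in df/+.

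Of 11 tested enzymes of purine breakdown other than Xdh, 3 rose in both genotypes. Called in either direction were 36.4% in WT and 45.5% in df/+, against 25.1% and 29.4% of all tested genes. Nt5c2, a nucleotidase that acts on IMP inside the cell, rose from 43.8 to 82.8 CPM in WT and from 44.8 to 88.0 CPM in df/+. Samhd1, which breaks down deoxynucleotides, rose from 93.5 to 163 CPM and from 85.9 to 163 CPM. Ada, adenosine deaminase, rose from 0.74 CPM (0.71 to 0.76) to 2.40 CPM (1.72 to 2.65) in WT and from 0.83 to 2.64 CPM in df/+, so it stayed low. Lacc1, described as a purine-metabolising enzyme of macrophages, fell in both (6.21 to 2.61 CPM in WT and 5.69 to 3.24 CPM in df/+, kept in 3 of 8 fits in df/+). Lacc1 shares 133 exon bases with Ccdc122 on the opposite strand.

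Transporters of nucleosides and urate moved both ways. Slc29a1, the equilibrative nucleoside transporter ENT1 that takes up adenosine, fell from 127 CPM (101 to 144) to 49.8 CPM (42.0 to 56.8) in WT and from 104 to 47.2 CPM in df/+ (log2 changes -1.35 and -1.14, adjusted p = 7.46e-06 and 4.20e-05, edgeR). Abcg2, an efflux pump of brain endothelium that also carries urate, rose from 364 to 608 CPM in WT and from 387 to 639 CPM in df/+. Slc2a9, a urate transporter, fell from 6.05 to 3.34 CPM and from 4.92 to 1.96 CPM. Slc28a3, a concentrative nucleoside transporter, was called higher at P50 in both genotypes but at low levels, 0.19 to 1.56 CPM in WT and 0.24 to 2.84 CPM in df/+. Its P14 means lay below the filter's cutoff of 0.647 CPM. It thus entered the test through its P50 libraries, which favours a call in this direction. In WT the call was kept in 2 of 8 fits for Slc2a9 and in 3 of 8 for Slc28a3.

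Among the other receptors, Adora1, the A1 adenosine receptor that lowers cyclic AMP, rose from 4.36 to 11.3 CPM in WT and from 5.53 to 11.4 CPM in df/+ (log2 changes 1.38 and 1.03). P2rx5 fell from 4.46 to 0.55 CPM and from 3.35 to 0.65 CPM (log2 changes -3.01 and -2.33), and P2rx1 from 8.92 to 4.81 CPM and from 8.58 to 4.79 CPM. The call was kept in 3 of 8 fits in WT and 2 of 8 in df/+ for P2rx1, and in 5 of 8 in df/+ for Adora1. P2rx6 was called higher in both (0.15 to 1.02 CPM in WT and 0.31 to 2.02 CPM in df/+), but it shares 554 exon bases with Slc7a4 on the opposite strand, whose 787 reads exceed the 223 of P2rx6. The P14 means of P2rx6 lay below the filter's cutoff of 0.647 CPM, so it too entered the test through its P50 libraries. Its call in WT was kept in 2 of 8 fits and lost without the 2 libraries that stood apart (adjusted p = 0.0510, edgeR), and in df/+ it was lost without P14 df/+ replicate 4 (adjusted p = 0.0515). P2ry12, a microglial ADP receptor, fell in df/+ from 7.89 to 1.55 CPM (log2 change -2.34, adjusted p = 0.0119, edgeR) and stood at 2.22 and 1.40 CPM in WT. Summed over 17 microglia and macrophage markers, P2ry12 among them, the P14 df/+ libraries held 224 to 304 CPM, the P14 WT libraries 48.6 to 239 CPM, and the P50 libraries 70.4 to 180 CPM; the part of these cells in the P2ry12 result was not tested. Between the genotypes at P14, P2ry12 stood at 6.26, 0.88, 1.10 and 0.64 CPM in WT and 8.53, 4.95, 7.67 and 10.4 CPM in df/+ (log2 difference 1.85, adjusted p = 0.9999, edgeR), a comparison chosen after its values were seen. Without P14 WT replicate 1, which held the highest microglia sum of its group, the difference was 3.17 (adjusted p = 0.0128, edgeR). That library also held the highest P2ry12 of its group, so the smaller p follows from leaving it out and is not read as a call. All 17 listed microglia and macrophage markers were higher in df/+ at P14, with 0 called. This was not particular to them: all 10 astrocyte and all 10 neuron markers were higher too, with 0 called. So were 7 of 8 fibroblast and 6 of 7 oligodendrocyte precursor markers, against 7 of 14 endothelial and 1 of 9 pericyte markers.

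Of 8 tested genes for the release of ATP from the cell, 2 rose and 4 fell in WT, and 1 rose and 2 fell in df/+. The called shares were 75.0% and 37.5%, against 25.1% and 29.4% of all tested genes. Gja1, connexin 43, fell from 218 to 82.9 CPM in WT and from 234 to 72.9 CPM in df/+; it is also on the astrocyte list, of which 1 of 10 genes fell in WT and 5 in df/+. Panx1, an ATP release channel, fell from 8.05 to 2.11 CPM and from 8.67 to 2.31 CPM. In WT Gja4 (110 to 62.0 CPM) and Abcc6, a transporter needed for ATP release in liver (234 to 149 CPM), fell too, and Panx2 rose from 1.96 to 5.14 CPM. In df/+ Lrrc8a, a volume-regulated anion channel subunit, rose from 22.7 to 41.2 CPM (kept in 6 of 8 fits, adjusted p = 0.0839, edgeR, without the 2 libraries that stood apart). In WT the call was kept in 2 of 8 fits for Gja4, 5 of 8 for Panx1 and 6 of 8 for Abcc6, and in df/+ that of Panx1 was lost without P14 df/+ replicate 1 (adjusted p = 0.0568).

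Below the P2Y receptors, where calcium is released and enters, 4 of 17 genes rose and 1 fell in WT, and 5 rose in df/+. The called share was 29.4% in each genotype, near that of all tested genes (25.1% in WT and 29.4% in df/+). Trpv4, a calcium channel that opens endothelial vasodilator responses, rose from 11.24 CPM (8.12 to 13.8) to 80.1 CPM (62.0 to 110) in WT and from 17.8 to 106 CPM in df/+ (log2 changes 2.83 and 2.57). Itpr3, an inositol trisphosphate receptor, rose from 121 to 239 CPM and from 123 to 208 CPM. Stim1, the calcium sensor of the endoplasmic reticulum, rose from 42.2 to 67.0 CPM and from 42.3 to 73.5 CPM, and Gna11, a G protein subunit of P2Y receptors, from 186 to 265 CPM and from 175 to 241 CPM. Below the A2A receptor, 1 of 15 cyclic AMP genes rose and 4 fell in each genotype, a called share of 33.3%. The phosphodiesterases Pde4b (120 to 35.1 CPM in WT and 117 to 41.6 CPM in df/+) and Pde4d (24.9 to 8.01 CPM and 26.4 to 11.6 CPM), which break down cyclic AMP, fell in both, as did the cyclases Adcy3 (9.63 to 5.81 CPM and 10.1 to 6.51 CPM) and Adcy7 (3.70 to 1.64 CPM and 4.92 to 1.96 CPM). Adcy3 shares 1380 exon bases with Cenpo on the opposite strand. Rapgef3, the cyclic AMP sensor EPAC1, rose in df/+ from 181 to 270 CPM. The call of Adcy7 in WT was kept in 4 of 8 fits and lost without the 2 libraries that stood apart (adjusted p = 0.0598, edgeR), and that of Adcy3 in df/+ was kept in 6 of 8. In df/+ the call of Gna11 was lost without P50 df/+ replicate 1 (adjusted p = 0.0535) and that of Rapgef3 without P14 df/+ replicate 1 (0.0512).

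Of 7 genes of purine salvage, 2 rose and 1 fell in each genotype. That is 42.9%, against 25.1% of all tested genes in WT and 29.4% in df/+. Adk, adenosine kinase, rose from 33.9 to 45.6 CPM in WT and from 35.0 to 48.4 CPM in df/+, and Dguok, deoxyguanosine kinase, from 21.2 to 32.8 CPM and from 19.7 to 31.8 CPM, whereas Dck, deoxycytidine kinase, fell from 21.3 to 9.77 CPM and from 21.1 to 9.41 CPM. Of 14 genes of purine synthesis, 2 rose and 1 fell in WT, and 2 rose and 2 fell in df/+. These shares, 21.4% and 28.6%, are near those of all tested genes. Adss, adenylosuccinate synthase, fell from 71.4 to 51.6 CPM and from 74.2 to 46.5 CPM, and Adssl1, its muscle-type partner, rose from 1.62 to 6.53 CPM and from 2.22 to 9.04 CPM. Prps2, which makes the ribose donor, was called higher in WT (6.45 to 12.04 CPM), but the call was kept in 2 of 8 fits and lost with the replicate block (adjusted p = 0.0710, edgeR). In df/+ Ppat, the first committed enzyme of the pathway, fell from 11.6 to 7.37 CPM and Guk1, guanylate kinase, rose from 36.3 to 82.9 CPM (adjusted p = 0.0579, edgeR, without the 2 libraries that stood apart). Ppat shares 272 exon bases with Paics on the opposite strand, which held 28976 reads against 2271 for Ppat. The call was kept in 2 of 8 fits in WT and 3 of 8 in df/+ for Adssl1, whose call in df/+ was also lost with the block (adjusted p = 0.0622, edgeR), and in WT in 6 of 8 for Adk and for Adss.

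**Figure D5:**
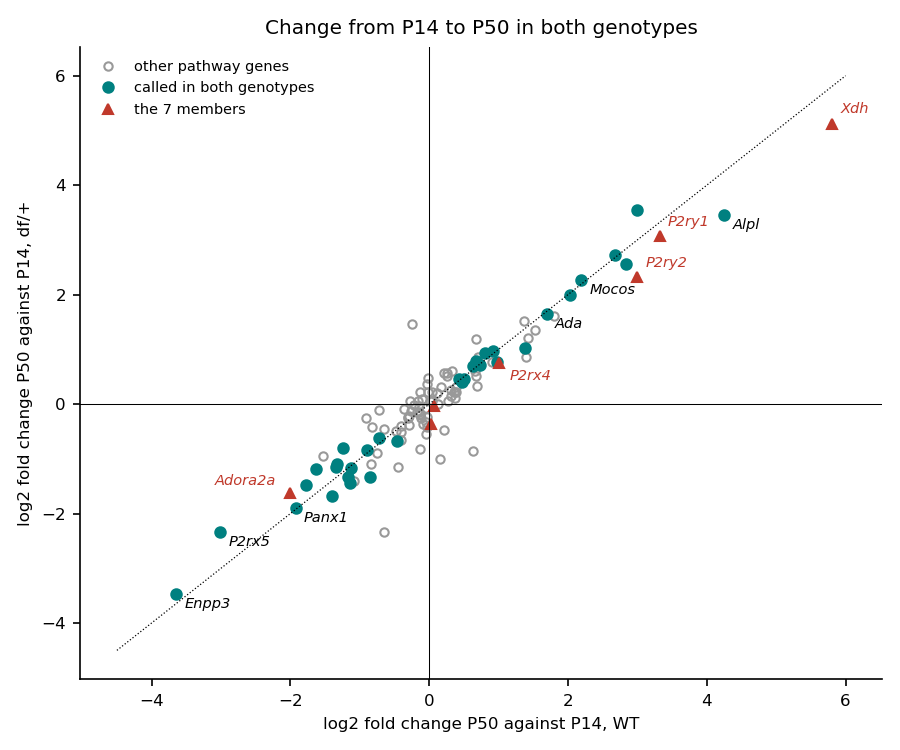
Log2 fold change from P14 to P50 in WT (horizontal) and in df/+ (vertical) for the 108 tested pathway genes (circles, filled where called in both genotypes) and the 7 genes of the set (triangles, not tested); the dotted line marks equal values, and the 2 axes use separate libraries. Alpl lies at 4.25 and 3.46 and Mocos at 2.19 and 2.27, on the side of Xdh, P2ry1 and P2ry2, and Enpp3 lies at the lower end at -3.65 and -3.46.

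The genes most like P2ry1, P2ry2 and Xdh over the 16 libraries were found by the root-mean-square difference of log2(CPM + 0.5) values centred on each gene's mean. For P2ry1 they were Rad54b (0.27), Phf11d (0.27) and Plscr1 (0.30). For P2ry2 they were Syne1 (0.43), Fmo1 (0.44) and Olfr558 (0.44), and for Xdh Plekhb1 (0.82), Fmo2 (0.87) and Ifit3 (0.90), a looser likeness. Plscr1 stood at 3.29 and 3.62 CPM in P14 WT and df/+ and at 25.9 and 22.5 CPM at P50. Plekhb1 stood at 36.5 and 36.8 CPM at P14 and at 763 and 750 CPM at P50. These are the closest profiles by a fixed measure among all tested genes, given without a test.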

How the data were processed

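The deposited table holds raw read counts per gene for 16 libraries, made by the authors; the submitters' processing notes name STAR 2.5.3a, DESeq2 and GRCm38.p5. Whether reads were counted by strand is not stated in the labels or headers. A deposited normalized table was not used. Rows were named through GENCODE M21 (52403 of 52636 identifiers have a symbol there; the others hold at most 0.0508% of the reads of a library). Genes with enough reads in at least 4 libraries (edgeR's filterByExpr, minimum count 10) were tested with edgeR 4.0.16 (TMM factors, quasi-likelihood test, 1 mean per group, all 16 libraries, 12 residual degrees of freedom) in R 4.3.3, with Benjamini-Hochberg adjustment over 15368 genes at 0.05. TPM used the union of exons. Total reads per library, 8658792 to 18737781, limit the precision for genes of a few CPM such as P2ry1, P2ry2 and Nt5e at P14. The biological coefficient of variation was 29.1%.

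The members and lists were chosen with earlier results of these data known. All members are named; of each role group, genes called in a comparison, at most 4 per group and comparison by smallest adjusted p. The procedure was tested on simulated data. Same-numbered WT libraries of the 2 ages had weakly correlated deviations (0.11 to 0.24), and the own number was the best match for 3 of 4. This does not show pairing, as the 2 ages were different mice. The replicate numbers follow the titles, and the column headers number the libraries otherwise. In other pairs of groups the correlations went down to -0.55. The main fit used no pairing, and a replicate block was an alternative. Alternatives: RLE and upper-quartile factors, DESeq2 1.42.0, limma-voom (limma 3.58.1), other filters, only the groups compared, a replicate block, removal of length and GC trends within each age, and leaving out libraries.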

Additional observations from a re-analysis of the deposited data

How the results depend on the processing

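Of 710 values for differences of the genes of the set between the genotypes under alternatives, 674 kept their direction, and none passed the test; 36 turned sign. P2ry2 at P50 was -0.27 with limma-voom and -0.18 with the replicate block. Entpd1 at P50 was 0.0012 with RLE factors, 0.0038 with upper-quartile factors, 0.0014 with DESeq2, 0.0080 with limma-voom, 0.012 with a minimum count of 50, 0.0071 with only the groups compared, 0.086 with the trends removed and 0.074 without both libraries that stood apart; its difference between the ages' effects was 0.077 with the trends removed and 0.010 without both libraries. Nt5e at P50 was -0.65 with limma-voom, and Xdh at P50 was 0.0075 without both libraries. Between the ages, Entpd1 was -0.032 in WT with the trends removed, and in df/+ 0.015 with upper-quartile factors, 0.045 with the trends removed and 0.037 without both libraries. Nt5e was -0.032 in WT with the trends removed, 0.016 in df/+ without both libraries and -1.39 with limma-voom. The row at the Pnp locus (Gm49342) was, in df/+, 0.047 with upper-quartile factors, 0.011 with limma-voom, 0.016 with a minimum count of 50, 0.0042 with only the groups compared and 0.0057 with the replicate block. The causes were not tested.

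With 1 library left out at a time, the log2 differences that turned sign ranged, between the genotypes at P50, from -0.050 to 0.31 for P2ry1, -0.38 to 0.33 for P2ry2, -0.15 to 0.13 for Entpd1, -0.17 to 0.70 for Nt5e, -0.56 to 0.042 for Xdh and -0.13 to 0.051 for Gm49342. Averaged over the ages they ranged from -0.059 to 0.044 for P2rx4, -0.030 to 0.11 for Entpd1, -0.11 to 0.020 for Adora2a and -0.024 to 0.35 for Xdh. For the difference between the ages' effects they ranged from -0.23 to 0.047 for Entpd1 and -0.87 to 0.0054 for Nt5e. Between the ages they ranged from -0.092 to 0.19 in WT and -0.12 to 0.038 in df/+ for Entpd1, from -0.10 to 0.23 and -0.85 to 0.018 for Nt5e, and from -0.10 to 0.14 in df/+ for Gm49342.

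Pathway genes called between the ages numbered 15 to 29 higher and 14 to 23 lower in WT and 16 to 25 higher and 16 to 23 lower in df/+ with 1 library left out. At P14, 0 to 1 were called higher in df/+ with 1 library left out and 3 (P2ry6, P2ry12 and P2ry13) without both libraries, where 1 was also called over both ages averaged. The omitted P14 WT replicate 1 held the highest level of its group for P2ry6 (1.19 CPM, against 0.18 to 0.21). The same held for P2ry12 (6.26, against 0.64 to 1.10) and P2ry13 (2.38, against 0.34 to 0.57). These calls follow from leaving it out and are not read as results. With the replicate block 21 pathway genes were higher and 19 lower in WT and 24 higher and 20 lower in df/+; Prps2 in WT (adjusted p = 0.0710, edgeR) and Adssl1 in df/+ (0.0622) were lost. Over all genes, 10 were called at P14 and 137 without both libraries, 22 with only the groups compared, 23 with DESeq2, 16 with the trends removed, 5 with upper-quartile factors and 3 with the block. At P50, 9 were called, and 0, 31, 17 and 18 with only the groups compared, DESeq2, the trends removed and without both libraries. Averaged, 18 were called, and 37 with DESeq2 and 72 without both libraries; between the ages in df/+, 4512 were called and 2417 with only the groups compared. Depth limits Nt5e at both ages and P2ry1 and P2ry2 at P14.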
